A study of Mus musculus with 6 samples.

Results

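Hox genes were followed in motor neuron cultures, and the members were the rows of the deposited table named Hox with a cluster letter from a to d and a paralogue number. The rule found 39 genes among 19613, and these are the 39 Hox genes of the RefSeq mouse gene table. The samples were 6 cultures of embryoid bodies, 1 array each, that held spinal motor neurons grown from HBG3 HB9 embryonic stem cells, a line in which the Hb9 (Mnx1) promoter drives a green fluorescent protein. Retinoic acid and the hedgehog agonist Hh-Ag1.3 had been used to induce the neurons, and the cultures were then exposed to blood fluid of male carriers of B6CBA-Tg(HDexon1)62Gpb/3J, a mouse model of Huntington's disease with a transgene of the first exon of human huntingtin, bled before symptoms. The labels name this fluid plasma in places and serum in others. All 6 arrays were of this 1 group, numbered 2, 4, 5, 6, 7 and 8, with no control arrays analysed here, so the values are levels under this fluid and not a response to it. The labels do not say whether the cultures came from separate batches of cells, nor whether each array stands for a mouse of its own. Embryoid bodies are mixtures in which only part of the cells become motor neurons, and in such bulk samples fewer cells of a type and less RNA per cell cannot be told apart.

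Hox genes encode homeodomain transcription factors and lie in 4 clusters, a to d, on separate chromosomes. Within a cluster the genes at the 3′ end carry low paralogue numbers and are used from the hindbrain backwards, whereas genes nearer the 5′ end have higher numbers and are used in progressively more caudal parts of the body. In the spinal cord they assign motor neurons to levels: Hoxa5 and Hoxc5 act in the cervical neurons that drive breathing, Hoxc6 and Hoxc8 at the level of the forelimb, Hoxc9 in the thoracic cord, and Hoxc10 and Hoxd10 in the lumbar cord. Retinoic acid is known to induce the 3′ genes.

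Levels were log2 intensities, and the line for background was 7.47, which 95% of 1032 olfactory receptor genes did not pass with their mean over the 6 arrays. A Hox gene whose own mean lay over this line was called above background. These receptors serve as background because most are used in olfactory tissue alone. Of the 39 Hox genes, 22 were above background, against 65.2% of all genes in the table. All 8 genes of paralogue groups 1 to 3 and all 7 of groups 4 and 5 were above it, followed by 4 of 8 in groups 6 to 8 and 3 of 16 in groups 9 to 13. The median level of these bands was 9.81, 10.43, 7.66 and 7.20, beside 8.26 over all genes and 5.54 over the olfactory receptors. Probes differ in affinity between genes, so a level places a gene against background and does not rank transcript amounts between genes. The 15 genes of groups 1 to 5 were also above the 95th percentile of the olfactory receptors of each of the 6 arrays taken alone, as were 20 Hox genes in all, against 62.0% of the table.

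**Figure D1:**
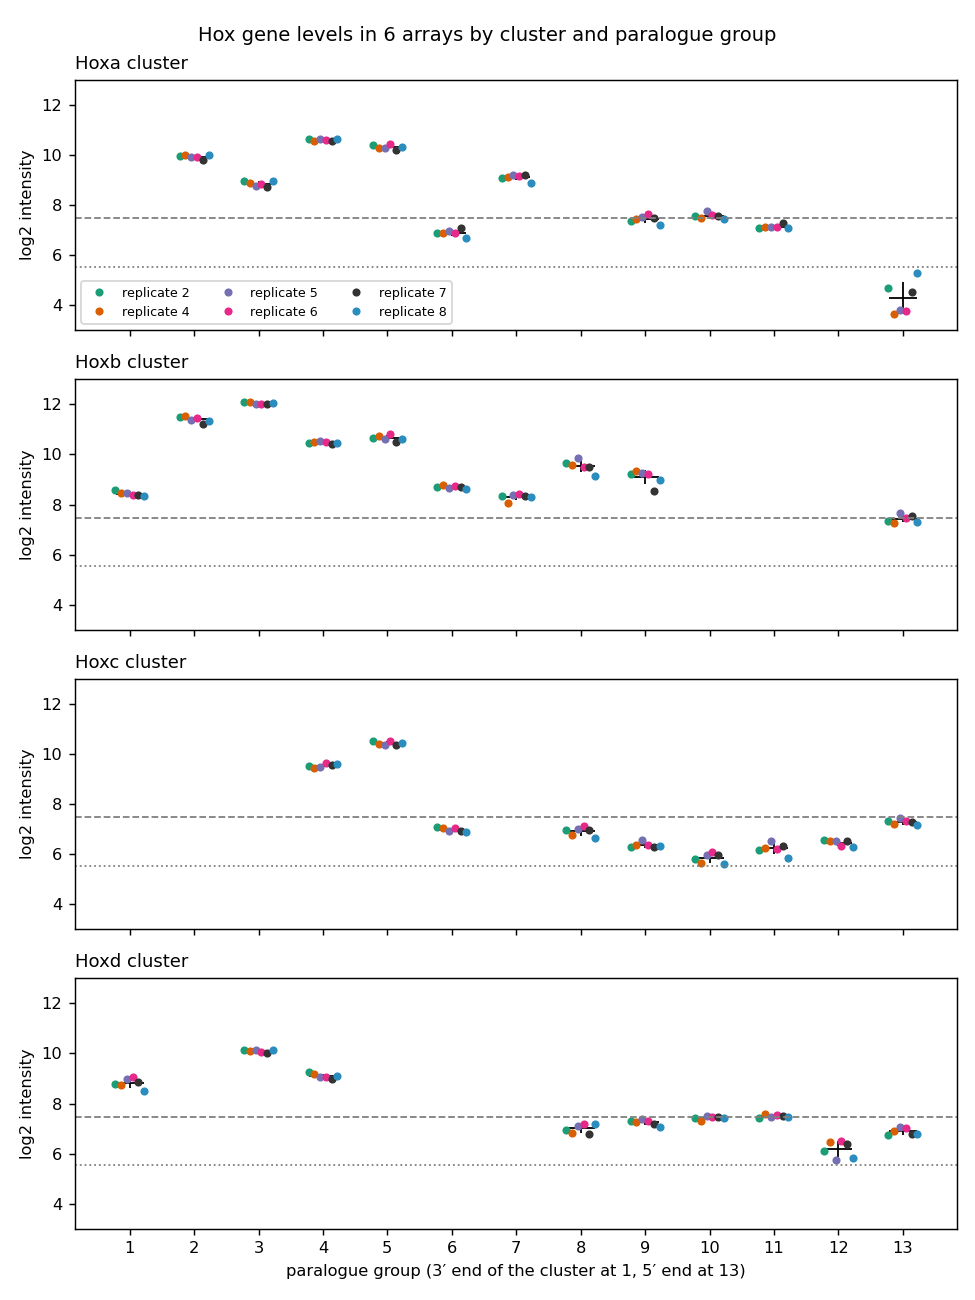
Log2 intensity of the Hox genes in each of the 6 arrays (coloured points, 1 gene not shown) against paralogue group, 1 panel per cluster. Black bars give the mean and SD over arrays (n = 6), the dashed line the background at 7.47 and the dotted line the median olfactory receptor at 5.54. Points of groups 1 to 5 lie above the dashed line in every panel, and beyond them the clusters part.

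Groups 1 to 3 hold the genes of hindbrain segments. Hoxb1, used in the territory of the facial motor neurons, had log2 intensities from 8.35 to 8.59 with a median of 8.43. Hoxd1 ran from 8.50 to 9.05 with a median of 8.81. The lowest array of both genes thus exceeded the background. Hoxa2 and Hoxb2, the Hox genes that reach furthest forward in the hindbrain, had levels of 9.93 ± 0.070 and 11.40 ± 0.11 (mean ± SD, n = 6). Group 3 genes act in the caudal hindbrain and the pharyngeal organs, and here Hoxb3 had 12.03 ± 0.037, Hoxd3 10.10 ± 0.055 and Hoxa3 8.85 ± 0.11 (mean ± SD, n = 6). Hoxb3 exceeded 98.7% of all genes in the table, a rank of intensities only.

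Group 4 genes begin near the border of hindbrain and spinal cord. Hoxa4 ran from 10.56 to 10.64 with a median of 10.60, Hoxb4 from 10.43 to 10.53 with 10.47, Hoxc4 from 9.43 to 9.63 with 9.53, and Hoxd4 from 8.98 to 9.24 with 9.08. Each lay above 99.5% or more of the olfactory receptor genes. The group 5 genes belong to the cervical cord. Hoxa5 ran from 10.19 to 10.43 with a median of 10.30, Hoxb5 from 10.49 to 10.80 with 10.64, and Hoxc5 from 10.37 to 10.51 with 10.42. Hoxa5, Hoxb5 and Hoxc5 were each highest in replicate 6 and lowest in replicate 7, which was the lowest array for 10 of the 15 genes of groups 1 to 5. In RefSeq the span of Hoxa3 overlaps Hoxa4, Hoxa5 and Hoxa6, that of Hoxb3 overlaps Hoxb4, and that of Hoxd3 overlaps Hoxd4. Values of such genes are uncertain where exons are shared, since the deposited values average all exons annotated to a gene.

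From group 6 on, the calls at this background differed among the 4 clusters. In the b cluster every gene from Hoxb1 to Hoxb9 was above background, 9 of 10, and Hoxb13, which lies far 5′ of the rest, was not at 7.43 ± 0.15 (mean ± SD, n = 6). Hoxb6 ran from 8.63 to 8.77 with a median of 8.69 and Hoxb7 from 8.08 to 8.44 with a median of 8.34. Hoxb8 ran from 9.15 in replicate 8 to 9.85 in replicate 5 with a median of 9.54, and Hoxb9 from 8.56 in replicate 7 to 9.34 in replicate 4 with a median of 9.21. All arrays of these 4 genes were above background, although at the 99th percentile of the olfactory receptors, 8.33, Hoxb7 was not.

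In the c cluster Hoxc4 and Hoxc5 were above background and the other 7 genes were below it in each of the 6 arrays. The calls just past Hoxc5 depended on the line, since Hoxc6 and Hoxc8, and likewise Hoxa6 and Hoxd8, were above the lower background of 6.87 set by vomeronasal receptor genes. Hoxc6, the forelimb-level gene next to Hoxc5, ran from 6.87 to 7.08 with a median of 6.98, and Hoxc8 from 6.65 to 7.13 with a median of 6.96. Hoxc9, the thoracic gene, had 6.36 ± 0.11, Hoxc10 5.86 ± 0.19, Hoxc11 6.23 ± 0.22, Hoxc12 6.45 ± 0.12 and Hoxc13 7.28 ± 0.099 (mean ± SD, n = 6). Hoxc10 lay above 61.5% of the olfactory receptor genes, well inside their range.

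In the d cluster, which lacks genes of groups 5 to 7, Hoxd1, Hoxd3 and Hoxd4 were above background. Hoxd8 was below it in every array, from 6.79 to 7.20 with a median of 7.02. Hoxd9 and Hoxd10 had 7.25 ± 0.12 and 7.43 ± 0.064, Hoxd12 6.17 ± 0.32 and Hoxd13 6.89 ± 0.14 (mean ± SD, n = 6). Hoxd11 passed by 0.020 at 7.49 ± 0.063 (mean ± SD, n = 6), with 2 of 6 arrays above their own background, and without replicate 8 its difference from the background was -0.017. The spans of Hoxd10 and Hoxd11 overlap in RefSeq.

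The calls in the a cluster did not follow the order of its genes. Hoxa2 to Hoxa5 were above background, Hoxa6 was not, Hoxa7 was, Hoxa9 lay just under the line and Hoxa10 just over it. Hoxa6 ran from 6.70 to 7.10 with a median of 6.89, below background in every array, although its span overlaps that of Hoxa3. Hoxa7 ran from 8.89 to 9.20 with a median of 9.15. The arrays of these neighbours thus lay wholly on opposite sides of the background. The values nearest the line over all clusters were 7.49 for Hoxd11 and 7.56 for Hoxa10 above it, and 7.44 for Hoxa9, 7.43 for Hoxb13 and 7.43 for Hoxd10 below it. These 5 genes changed side under at least 1 other definition of background. Hoxa11 had 7.14 ± 0.066, and Hoxa13, used at the tips of the limbs and the tail, had 4.28 ± 0.65 (mean ± SD, n = 6), and only 9.98% of the olfactory receptors were lower.

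The sequences before the starts of 4 consecutive genes of the a cluster are shown because neighbours there differed in their calls. Hoxa5 and Hoxa7 were above background under every setting tried. Hoxa6 was below it at 7.47 and above it with vomeronasal receptor genes as background. Hoxa9 is not firmly on either side, as its mean minus the background was -0.028 with an SD of 0.14, 2 of its 6 arrays were above their own background, and it passed at the 90th percentile of the olfactory receptors. Each runs 5′ to 3′ from 250 bases before to 50 bases after the start, from RefSeq on GRCm38.p6. Capitals mark the core site of retinoid receptors, AGGTCA, and a site of caudal-type (Cdx) proteins, TTTATG, searched on both strands as AGGTCA or TGACCT and TTTATG or CATAAA.
Hoxa5, chr6:52204538-52204837, minus strand: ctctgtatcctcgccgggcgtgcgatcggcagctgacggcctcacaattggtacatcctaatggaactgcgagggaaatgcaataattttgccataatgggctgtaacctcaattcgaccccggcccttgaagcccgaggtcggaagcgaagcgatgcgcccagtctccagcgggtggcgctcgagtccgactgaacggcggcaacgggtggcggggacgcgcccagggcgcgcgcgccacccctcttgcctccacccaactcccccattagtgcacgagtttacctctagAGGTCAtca
Hoxa6, chr6:52208623-52208922, minus strand: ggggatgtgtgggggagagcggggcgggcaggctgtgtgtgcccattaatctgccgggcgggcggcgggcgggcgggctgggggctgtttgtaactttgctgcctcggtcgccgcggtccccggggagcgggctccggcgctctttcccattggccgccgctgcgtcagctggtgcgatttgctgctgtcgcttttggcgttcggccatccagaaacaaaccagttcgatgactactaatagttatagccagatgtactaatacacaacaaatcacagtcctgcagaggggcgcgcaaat
Hoxa7, chr6:52218524-52218823, minus strand: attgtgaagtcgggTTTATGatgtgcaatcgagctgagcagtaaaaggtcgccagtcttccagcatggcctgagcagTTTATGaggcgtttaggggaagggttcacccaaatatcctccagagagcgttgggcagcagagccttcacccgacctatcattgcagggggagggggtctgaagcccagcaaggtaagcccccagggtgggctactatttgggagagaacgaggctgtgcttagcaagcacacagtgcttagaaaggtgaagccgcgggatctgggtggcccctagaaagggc
Hoxa9, chr6:52227321-52227620, minus strand: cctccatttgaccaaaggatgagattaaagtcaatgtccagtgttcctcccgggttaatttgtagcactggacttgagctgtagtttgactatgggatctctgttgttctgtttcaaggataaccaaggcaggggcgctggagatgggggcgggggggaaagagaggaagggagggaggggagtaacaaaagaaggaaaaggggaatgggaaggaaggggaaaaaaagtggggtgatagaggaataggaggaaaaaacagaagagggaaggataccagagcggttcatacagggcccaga
Hoxa5 held 1 core site of retinoid receptors, Hoxa7 held 2 caudal-type sites, and Hoxa6 and Hoxa9 held neither. The number of CpG dinucleotides was 29 in Hoxa5, 26 in Hoxa6, 9 in Hoxa7 and 4 in Hoxa9, beside a median of 7 over all promoters. RefSeq promoters were at hand for 22 of the 39 Hox genes, with 24 promoters in all, as Hoxa10 and Hoxd11 have 2 each. The retinoid receptor site was in 7 of the 24, against 16.3% of 32851 promoters, and in 5 of 15 of genes above background and 2 of 9 of genes below it. The caudal-type site was in 5 of 24, against 11.9%, and in 5 of 15 and 0 of 9, where 1 of the 5 is a promoter of Hoxd11, the gene whose call is lost without replicate 8. The median CpG count was 13 in promoters of Hox genes above background and 20 in those of genes below it. These matches describe letters in these windows and were not tested.

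The replicate error of the 22 Hox genes above background had a median of 0.092 on the log2 scale, beside 0.076 over all 12793 genes above background. SDs fall with level, so genes were also compared within 4 bins of level that each held about the same number of genes. In bin 1, the lowest, 2 of 3 Hox genes had an SD above the median of 0.11 for that bin. In bin 2, 3 of 4 were above the median of 0.078. In bin 3, with levels from 9.09 to 9.98, all 7 were above the median of 0.069. In bin 4, the highest, 4 of 8 were above the median of 0.058. Hoxb9 had the widest SD, 0.29, with a 1.72-fold difference between its highest and lowest arrays. It was 8.56 in replicate 7 and from 8.99 to 9.34 in the other arrays, and without replicate 7 its SD was 0.13. Hoxb8 had an SD of 0.23, which was 0.14 without replicate 8, where it was lowest. Hoxd1 had 0.20. The narrowest were Hoxa4 at 0.035 and Hoxb3 at 0.037, with fold differences of 1.06 between highest and lowest arrays for each.

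**Figure D2:**
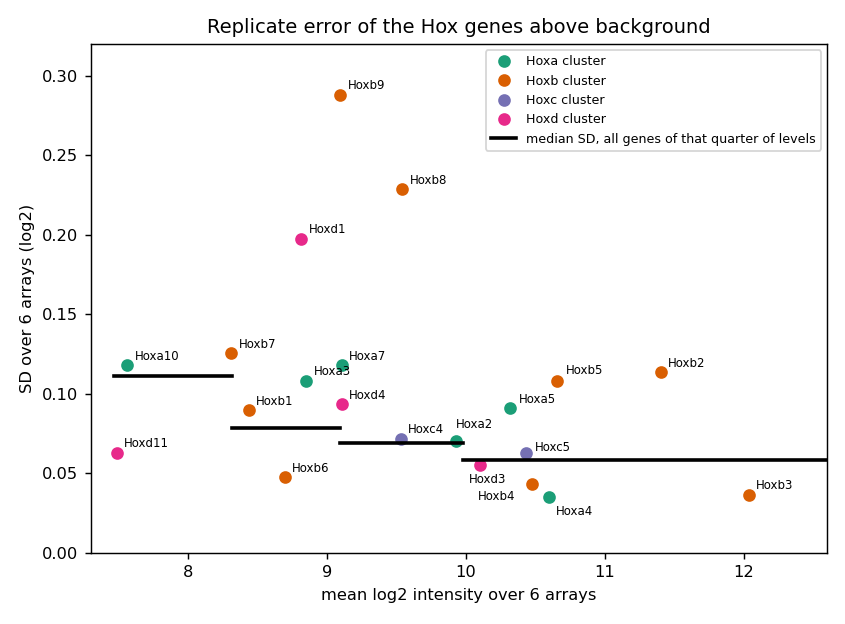
SD over the 6 arrays against mean log2 intensity for the Hox genes above background, coloured by cluster (1 gene not shown). Black lines give the median SD of all genes in each of 4 bins of level (the last runs on beyond the axis), and Hoxb9, Hoxb8 and Hoxd1 stand highest above them.

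The deviations of the arrays did not fall evenly on the Hox genes. Replicate 7 was the lowest array for 11 of the 22 genes, against 17.9% of all genes above background, and for 10 of the 15 genes of groups 1 to 5. The mean deviation of these 15 genes in replicate 7 was -0.088 on the log2 scale, beside 0.059 in replicate 2, 0.014 in replicate 4, -0.017 in replicate 5, 0.039 in replicate 6 and -0.0069 in replicate 8. Over all genes above background the deviation of replicate 7 was 0.00046. Hoxb2, Hoxa5 and Hoxb5 were among the genes lowest in this array. The averaged level of the motor neuron genes Olig2, Mnx1, Isl1 and Lhx3 was 9.03 in this array, where the other arrays had 9.05 to 9.23. The next lowest average, 9.05, was in replicate 2, where the 15 Hox genes had their highest mean deviation. Replicate 7 was singled out after its values had been seen.

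The 5 genes of groups 6 to 9 above background, Hoxb6, Hoxa7, Hoxb7, Hoxb8 and Hoxb9, differed from the 15 genes of groups 1 to 5 in mean deviations. Their mean deviation was 0.12 in replicate 5, -0.094 in replicate 7 and -0.16 in replicate 8. All 5 were below their own mean in replicate 8. The low value there was not confined to them. Hoxd1 and Hoxb1, of group 1, were also lowest in replicate 8, at 8.50 and 8.35, as 2 of the 15 genes of groups 1 to 5. Pearson's r of Hoxd1 with the 5 genes ran from 0.15 for Hoxb9 to 0.87 for Hoxa7. The replicate 7 value rested on Hoxb9, at 8.56 there against its mean of 9.10. Hoxb6 at 8.69 and Hoxb8 at 9.51 were close to their means of 8.69 and 9.54 in that array. Hoxa7 at 9.19 and Hoxb7 at 8.33 were above theirs, 9.11 and 8.31. Replicate 8 was the lowest array for 4 of the 7 genes of groups 6 to 13 above background, against 26.4% of all genes above background. For Hox genes below background it was lowest in 9 of 17, against 53.8% of all genes below background, a share close to that of the table. The median pairwise Pearson's r over the 6 arrays was 0.30 among the 15 genes of groups 1 to 5, 0.20 among the 7 genes of higher groups and 0.0086 between these sets, beside -0.001 over all pairs of genes above background. Pairs share the same 6 arrays and are given as a description. Without replicate 7 the first of these values was 0.082. Pairs within a cluster had a median r of 0.23 and pairs of different clusters 0.17.

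**Figure D3:**
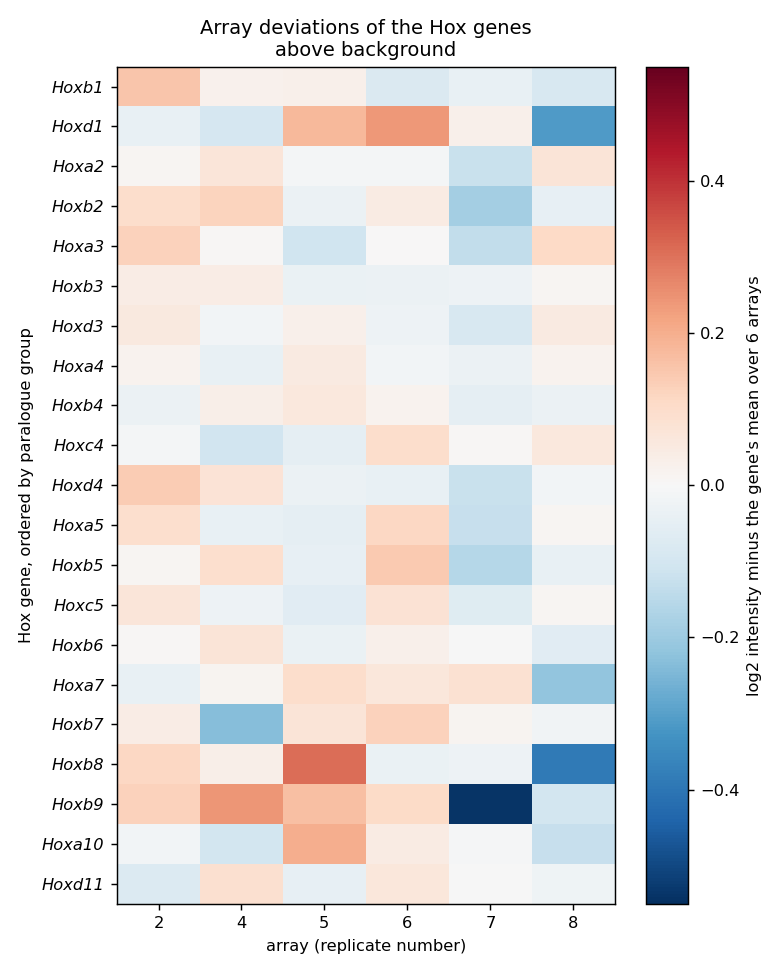
Log2 intensity minus the gene's own mean over the 6 arrays, for the Hox genes above background (rows, by paralogue group, 1 gene not shown) in each array (columns). Blue cells in the column of replicate 7 run through most genes of groups 1 to 5 and are deepest at Hoxb9, and the column of replicate 8 is deepest at Hoxb8 and Hoxd1.

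Each gene above background was regressed with limma on the averaged level of Olig2, Mnx1, Isl1 and Lhx3 in each array. This asked whether Hox levels followed that average, with Benjamini-Hochberg adjustment over 12793 genes. The average joins genes that moved in opposite directions in replicate 7, and Olig2 is a progenitor marker, so it does not stand for motor neuron genes singly. By limma 0 of 22 Hox genes had an adjusted p under 0.05, against 0.0% of all genes, and 0 of 22 had an unadjusted p under 0.05, against 4.55% of all genes, or 2.62% with a positive and 1.93% with a negative slope. The slope was positive for 12 Hox genes and negative for 10, with a median of 0.021 beside 0.0054 over all genes. The lowest unadjusted limma p of a Hox gene was 0.242 for Hoxa4, with a slope of 0.35 ± 0.28 (SE, n = 6). Exact permutation of the arrays gave 0 Hox genes under 0.05 as well. The study's own correction with these 4 genes yields a log2 ratio to a predicted level, whereas the deposited values are linear intensities with array medians of 296 to 311, and so are not that corrected output. Relations of this size may not be detectable with 6 arrays.

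The same fit was made on the median olfactory receptor level of each array, which ranged from 5.44 in replicate 8 to 5.61 in replicate 6, to show how Hox genes moved with the background of the arrays. By limma 0 of 22 Hox genes had an adjusted p under 0.05, against 0.172% of all genes. At an unadjusted p under 0.05 there were 3, against 20.5% of all genes, a share no higher than that of the table. They were Hoxa7 and Hoxd1, with positive slopes, against 13.4% of all genes, and Hoxa3, with a negative slope, against 7.11%. Hoxa7 had a slope of 1.54 ± 0.33 (SE, n = 6) and a limma adjusted p of 0.0646. Its Pearson's r was 0.96 with an exact permutation p of 0.00833, or 0.165 after adjustment over all genes, while Spearman's rho was 0.77 (exact permutation p = 0.103). Without replicates 2 and 8, the arrays farthest from the median, r was 0.79. Hoxd1 had a slope of 2.26 ± 0.58 and Hoxa3 one of -1.24 ± 0.40 (SE, n = 6), with limma adjusted p of 0.0878 and 0.138.

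The companions of Hox genes were read from lists. Hox proteins bind DNA with Pbx and Meis family partners, and 8 of 8 matched cofactor genes were above background, beside 65.2% of all genes. Meis2 had 12.11 ± 0.063, Pbx3 11.80 ± 0.071 and Meis1 11.42 ± 0.12 (mean ± SD, n = 6). All 8 chromatin regulators of the clusters were above it, among them Ezh2, the methyltransferase of the Polycomb complex, at 11.73 ± 0.040 and Rnf2 at 11.28 ± 0.072 (mean ± SD, n = 6). Of the hindbrain and retinoid genes 7 of 8 were above background. Rara, a retinoic acid receptor, had 10.34 ± 0.051 (mean ± SD, n = 6). Of the enzymes that degrade retinoic acid, Cyp26b1 had 7.62 ± 0.14 and Cyp26c1 7.62 ± 0.16, just above background, and Cyp26a1 5.74 ± 0.15, below it (mean ± SD, n = 6).

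Of the posterior inducers and caudal genes 7 of 8 were above background, again beside 65.2% of all genes, and with lists this short such counts do not set a list apart from the table. Gdf11, a signal that promotes caudal Hox genes, had 10.25 ± 0.13, Cdx1 8.61 ± 0.14 and Cdx2 8.42 ± 0.14, while Cdx4 had 5.89 ± 0.15 (mean ± SD, n = 6). Evx1 and Evx2 are homeobox genes that adjoin the 5′ ends of the a and d clusters, and they also mark spinal interneurons. They had 8.73 ± 0.18 and 9.07 ± 0.13 (mean ± SD, n = 6), above background, whereas their neighbours Hoxa13 and Hoxd13 were below it. Among the ParaHox genes 2 of 3 were above it, with Gsx2 at 9.93 ± 0.18 (mean ± SD, n = 6). Of the genes of columns that Hox genes assign, 4 of 5 were above it, with Pou3f1, used in phrenic neurons, at 10.91 ± 0.076 and Runx1 at 9.17 ± 0.16 (mean ± SD, n = 6). Etv4 was below background at 7.34 ± 0.079 (mean ± SD, n = 6).

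Of 7 rostral brain genes 4 were above background, close to the 65.2% of all genes. Gbx2 and En1 had 9.13 ± 0.11 and 8.88 ± 0.13, while Otx2, of the forebrain and midbrain, was below background at 6.83 ± 0.11 (mean ± SD, n = 6). The label of the cells was checked with markers. All 7 matched motor neuron markers were above background, with levels from 8.48 to 10.33, and 4 of 5 progenitor markers were. The progenitor marker below background was Pax6 at 6.89 ± 0.10 (mean ± SD, n = 6). All 4 markers of cranial motor neurons were above it as well, with Tbx20 at 9.89 ± 0.20 (mean ± SD, n = 6). Some of these, Gata3 included, are used by other spinal neurons too. Hox genes are also used outside the nervous system, and 2 of 7 markers of paraxial and caudal mesoderm, 2 of 3 of lateral mesoderm and 1 of 2 of neural crest were above background. Their mean per array ranged from 7.18 to 7.56, from 7.11 to 7.36 and from 7.34 to 7.66. Tcf15 at 8.74 and T at 8.37 led the first list, and Tbx6, Meox1, Meox2, Foxc2 and Myf5 were below background. The part of such cells in the Hox levels was not tested.

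**Figure D4:**
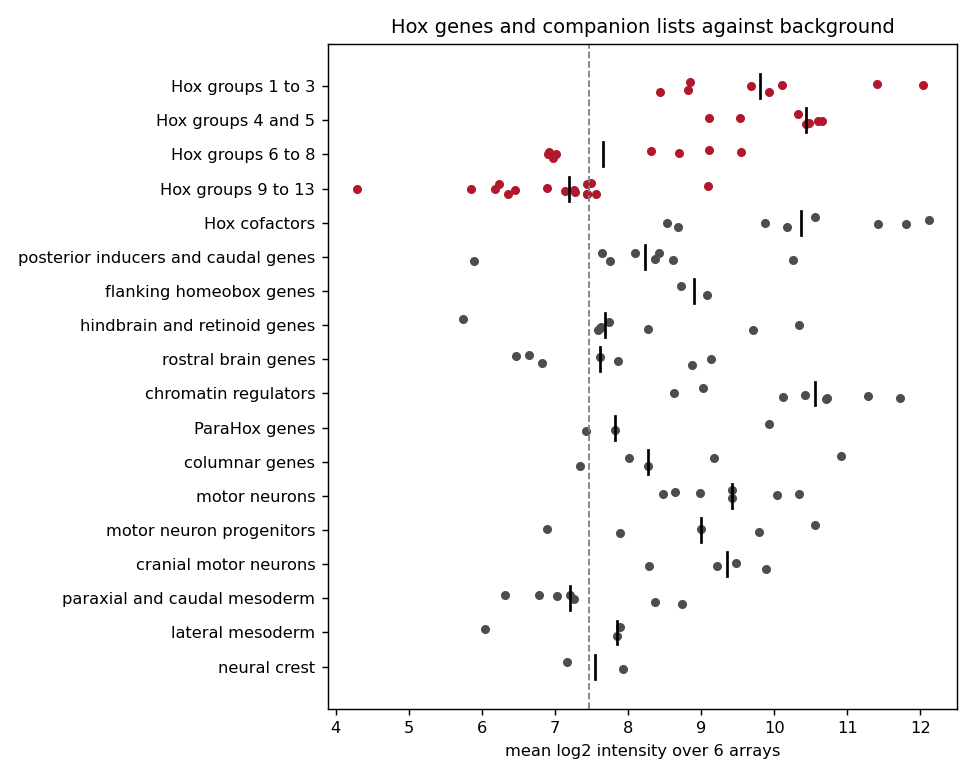
Mean log2 intensity over the 6 arrays of each gene (points) in the 4 bands of Hox genes (red) and the companion and marker lists (grey), with the median of each as a black line and the background of 7.47 dashed. The points of Hox groups 1 to 5, the cofactors and the chromatin regulators lie wholly right of the dashed line, and most of those of groups 9 to 13 lie left of it.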

How the data were processed

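RNA of the 6 cultures was hybridised to Affymetrix Mouse Exon ST arrays. The authors deposited 1 linear-scale intensity for each gene of an array. They made these by Robust Multi-array Averaging in Aroma Affymetrix and took the mean over all exons of a gene as the methods state, and the labels list Affymetrix Expression Console and RMA. The arrays normalized together and the genome build are not given in the sources used here. The methods describe removal of outlying arrays, and whether these 6 arrays were screened is not stated. The batch correction that the methods describe gives log2 ratios, which these linear values are not. The table held 0 columns of other samples, and 0 pairs of arrays were identical. Pearson's r between arrays over all genes was 0.991 to 0.997, and the median intensity was 296 to 311.

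Values were taken to log2, without a pseudocount, and compared with 1032 olfactory receptor genes. Fits used limma 3.58.1 in R 4.3.3 with a mean-variance trend. They were also run on simulated data with planted slopes larger than any Hox slope found here. That run says nothing about slopes of the size found. Exact permutation ran over all orders of the 6 arrays, where the smallest p is 0.00278. Other steps used Python 3.11.15, numpy 2.4.6 and pandas 2.3.3. Every Hox gene entered the counts, and lists were described by counts with at most a few members named. Some genes that enter the counts are not reported here by name. Companion genes were matched by symbol or RefSeq synonym (GRCm38.p6), Kmt2a as Mll1; Rarb, Six3, Foxp1 and Slc18a3 were not matched. The members and lists were chosen with earlier results of these data known. The number of arrays limits the precision, and p-values measure the spread between these arrays, which may be technical. Alternatives were other backgrounds, quantile normalization, median centring, no filter, no trend and leaving out each array.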

Additional observations from a re-analysis of the deposited data

Results flagged for a closer look

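A search of the 39 Hox genes for values in which 1 array stood far from the rest returned 2, and chance alone would return about 1.95. Hoxa11 had a log2 intensity of 7.26 in replicate 7, the highest, with a gap to its neighbour of 0.66 of the whole range. Hoxc9 had 6.57 in replicate 5, the highest, with a gap of 0.63 of the range. Both genes were below background in every array.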

How the results depend on the processing

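With 11 other settings of background, scaling and arrays, 25 of the 39 Hox genes stayed on their side of the background in each setting, 19 above it and 6 below it. The 19 included all 15 genes of groups 1 to 5, with Hoxb6, Hoxa7, Hoxb8 and Hoxb9, and the 6 were Hoxa13, Hoxc9, Hoxc10, Hoxc11, Hoxc12 and Hoxd12. The caudal bands depended on the background. With vomeronasal receptor genes as background, at 6.87, 8 of 8 genes of groups 6 to 8 and 10 of 16 genes of groups 9 to 13 were above it, Hoxc6, Hoxc8 and Hoxd8 among them, and 33 of the 39 Hox genes (84.6%) passed, beside 76.4% of all genes. The other lines moved Hox genes and the table alike, to 71.8% and 73.0% at the 90th percentile of olfactory receptors and to 48.7% and 48.6% at the 99th. With the 90th percentile, at 7.05, groups 9 to 13 had 9 genes above, and with the 99th percentile, or with each array against its own background, 1, which was Hoxb9. Quantile normalization and leaving out any array changed no call but that of Hoxd11 without replicate 8. The median SD of the Hox genes above background ranged from 0.080 to 0.10 with 1 array left out, and was 0.11 with no filter. In the fit on the olfactory receptor median, the count of Hox genes at an adjusted limma p under 0.05 ranged from 0 to 1 with 1 array left out. Without replicate 2 it was 1, Hoxa7, and the same fit called 465 genes of the table against 22 with all arrays. Without a trend it called 255 genes, with no filter 31, with quantile normalization 0, without replicate 4 276, without replicate 5 33, and 0 without replicate 6, 7 or 8, and the cause was not tested. The fit on the motor neuron mean called 0 genes of the table under each alternative. The median pairwise r among genes of groups 1 to 5, whose leaving out of arrays was chosen after seeing the data, ranged from 0.082 to 0.46. No paired analysis was possible because there is 1 group. Genes near the background have only a bound on their signal over background, which limits the calls of groups 6 to 13.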
